A study of Homo sapiens with 16 samples.

Results

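The second day of phorbol ester treatment, from 24 h to 48 h, was compared in K562 cells. K562 is an established human leukaemia line with erythroid features, labelled wild type here, that can take on features of megakaryocytes, the precursors of platelets. Both groups grew in RPMI with 10% FBS and 1% Pen/Strep and received 25 nM phorbol 12-myristate 13-acetate (PMA). The medium was changed after 24 h and again after 48 h, and the labels do not say whether fresh medium carried new PMA, so the second day of PMA and the fresh medium cannot be told apart. The 2 libraries of 48 h were set against the 2 libraries of 24 h, which are 4 of the 16 libraries of a series with 8 time points from 0 to 72 h. The labels number the 2 libraries of a time point and do not say whether they came from separate cultures, so p-values measure the spread between these libraries, which may be technical. A lower level in such bulk RNA can come from fewer cells of a kind or from less RNA per cell, and these cannot be told apart.

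PMA stands in for diacylglycerol, the lipid that activates protein kinase C (PKC), and PKC in turn drives the ERK kinases and the AP-1 factors. In K562 cells this slows division and starts a megakaryocyte-like programme, in which cells spread on the dish, gain integrins and turn on platelet genes. Dividing cells are recognised in RNA by replication-dependent histone transcripts, which are made in S phase, and by genes for DNA replication and mitosis. Most of these histone transcripts carry no poly(A) tail, and the libraries were made from total RNA depleted of ribosomal RNA.

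Levels are CPM, the reads of a gene relative to all matched reads of its library, scaled by the TMM factors of edgeR, and differences are log2 fold changes of 48 h over 24 h. A gene was called at a Benjamini-Hochberg adjusted p under 0.05 in the quasi-likelihood test of edgeR, fitted over all 16 libraries. Library totals were 33073509 and 54056289 estimated reads at 24 h and 33458595 and 37689730 at 48 h. Mitochondrial genes took 2.34 and 3.74% of the matched reads at 24 h and 1.55 and 2.62% at 48 h. The libraries numbered 2 had longer fragments than those numbered 1 at both times, with a gap between transcript length and effective length of 233 and 234 nt against 213 and 217 nt. Replicates lay 0.282 (24 h) and 0.256 (48 h) apart in root-mean-square log2 CPM, and the step moved each replicate number by 0.447 and 0.453.

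Genes that rose on the second day were more numerous, changed more and were expressed at lower levels than genes that fell. Of 17559 genes tested, 2633 were called (15%), with 1559 higher (8.88%) and 1074 lower (6.12%) at 48 h. Their median change was 0.92 on the log2 scale for the higher and 0.47 for the lower genes. The median level went from 7.01 to 13.9 CPM among the higher genes and from 56.5 to 41.1 CPM among the lower genes. At least 2-fold differences were called for 812 genes (4.62%), 715 higher (4.07%) and 97 lower (0.552%). In all 2633 called genes the 48 h libraries did not overlap the 24 h libraries, which held for 63.8% of all tested genes.

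The count of called genes depended on every library. It was 1471 without replicate 1 of 24 h (942 higher, 529 lower), 1115 without replicate 2 of 24 h (886 and 229), 1199 without replicate 1 of 48 h (892 and 307) and 1206 without replicate 2 of 48 h (837 and 369). Called in each of these 4 tests as well as in the full one were 687 of the 1559 higher and 187 of the 1074 lower genes. A gene described below as risen or fallen belongs to these unless a value without a library stands beside it. Higher genes made up 59.2% of the calls, and 72.9% with libraries scaled to total counts, under which the median change of all genes was 0.087 in place of 0.0034.

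**Figure D1:**
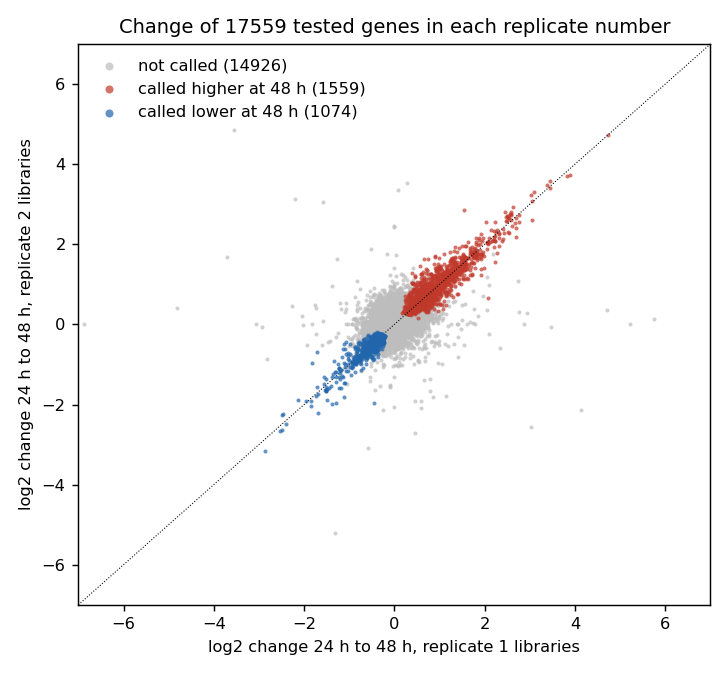
Change of each of the 17559 tested genes from 24 h to 48 h, as log2 of CPM plus 0.5, in the libraries numbered 1 (horizontal axis) and numbered 2 (vertical axis). The 1559 genes called higher (red) and the 1074 called lower (blue) lie along the diagonal, and the higher genes reach farther from 0.

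Of the 10 largest rises, 9 were in genes that averaged under 5 CPM in untreated cells, and FKBPL averaged more (8.62 CPM). A2M (ENSG00000175899, chromosome 12, 9067664 to 9116229, all coordinates on GRCh38), the secreted protease inhibitor alpha-2-macroglobulin, stood at 2.03 and 2.200 CPM at 24 h and 35.3 and 34.9 CPM at 48 h (log2 fold change 4.04, SE 0.23, adjusted p = 1.64e-07). CGA (ENSG00000135346, chromosome 6, 87085498 to 87095406), the common alpha subunit of the pituitary glycoprotein hormones, stood at 1.68 and 1.66 CPM at 24 h and 23.3 and 25.3 CPM at 48 h (log2 fold change 3.86, SE 0.20, adjusted p = 8.5e-08). At 6 h they still averaged 0.0427 (A2M) and 0.259 CPM (CGA). JAG1 (ENSG00000101384, chromosome 20, 10637684 to 10673999), a membrane ligand of Notch receptors, had 1.74 and 1.64 CPM at 24 h and 23.01 and 23.5 CPM at 48 h (log2 fold change 3.78, SE 0.18, adjusted p = 2.74e-08). RLN3 (ENSG00000171136, chromosome 19, 14028148 to 14031042), the peptide hormone relaxin 3, had 18.1 and 21.98 CPM at 24 h and 203 and 237 CPM at 48 h (log2 fold change 3.45, SE 0.16, adjusted p = 2.97e-08). In each of these genes both 48 h libraries lay far above both 24 h libraries, and replicates were close.

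The other genes of the top 10 rises follow. PRSS2 (ENSG00000275896, chromosome 7, 142760398 to 142774564), a trypsinogen with near-identical relatives among which reads can be split, gave 10.2 and 12.6 CPM at 24 h and 159 and 173 CPM at 48 h (log2 fold change 3.86, SE 0.15, adjusted p = 7.27e-09). NOS1 (ENSG00000089250, chromosome 12, 117208142 to 117452170), the neuronal nitric oxide synthase, gave 11.7 and 11.95 CPM at 24 h and 99.96 and 104 CPM at 48 h (log2 fold change 3.11, SE 0.13, adjusted p = 1.18e-08). CTSE, the aspartic protease cathepsin E, rose from 4.13 and 3.78 to 39.04 and 42.00 CPM (3.36, adjusted p = 2.35e-07), and GLP1R, the receptor of glucagon-like peptide 1, rose from 0.871 and 1.06 to 7.98 and 11.4 CPM (3.31, adjusted p = 0.000113). PAK6, a p21-activated kinase, rose from 1.36 and 1.27 to 10.1 and 10.7 CPM (2.99, adjusted p = 4.88e-06), but 39.5% of its exon bases are shared with the BUB1B-PAK6 readthrough gene. The largest fitted rise, that of FKBPL, rests on 0 reads in both 24 h libraries and is given with the results for a closer look.

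At 72 h, measured against the same 48 h libraries, the mean of 8 of the 9 genes named above with their values was higher still and that of RLN3 was lower. PRSS2 averaged 166 CPM at 48 h and 435 CPM at 72 h (log2 fold change 1.39, adjusted p = 0.000279), and JAG1 averaged 23.2 and 66.5 CPM (1.52, adjusted p = 0.000279). RLN3 averaged 219.9 CPM at 48 h and 118 CPM at 72 h (−0.90, adjusted p = 0.00875). PAK6 averaged 10.4 and 12.2 CPM, a difference that was not called (adjusted p = 0.787). Over all genes 201 (1.14%) were called higher and 57 (0.325%) lower from 48 h to 72 h.

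Of the 10 largest falls, 9 were in genes that stood higher at 24 h than before PMA. MMP10 (ENSG00000166670, chromosome 11, 102770503 to 102780628), the matrix protease stromelysin 2, stood at 21.5 and 21.3 CPM at 24 h and 2.53 and 1.95 CPM at 48 h (log2 fold change −3.25, SE 0.26, adjusted p = 5.79e-06). Its mean was 0.04603 CPM before PMA and 22.9 CPM at 6 h. HPGD (ENSG00000164120, chromosome 4, 174490177 to 174523154), the enzyme that inactivates prostaglandins, stood at 85.4 and 77.3 CPM at 24 h and 14.7 and 11.9 CPM at 48 h (log2 fold change −2.61, SE 0.17, adjusted p = 5.32e-07). MUC5AC (ENSG00000215182, chromosome 11, 1157953 to 1201138), a gel-forming mucin, fell from 15.9 and 16.5 to 2.47 and 3.12 CPM (log2 fold change −2.53, SE 0.23, adjusted p = 8.68e-06) after a mean of 106 CPM at 6 h. The 48 h levels of MMP10, HPGD and MUC5AC were all still above their 0 h levels.

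COL5A3, a chain of fibrillar collagen V, fell from 105 and 105 to 28.6 and 25.2 CPM (−1.96, adjusted p = 3.08e-06), and IL11 is described with the cytokines. MLC1, a membrane protein of astrocytes, fell from 17.8 and 20.05 to 2.96 and 3.18 CPM (−2.62, adjusted p = 1.13e-06), MB, the muscle oxygen carrier myoglobin, fell from 14.8 and 15.8 to 4.08 and 4.21 CPM (−1.88, adjusted p = 8.1e-05), and GCNA fell from 20.3 and 21.7 to 4.88 and 5.35 CPM (−2.04, adjusted p = 5.88e-07). TCN1, a secreted binder of vitamin B12, fell from 11.1 and 11.1 to 2.71 and 2.57 CPM (−2.07, adjusted p = 5.75e-07) to a level below its mean of 35.7 CPM in untreated cells. It was the only one of the 10 largest falls whose mean at 48 h was below that at 0 h.

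**Figure D2:**
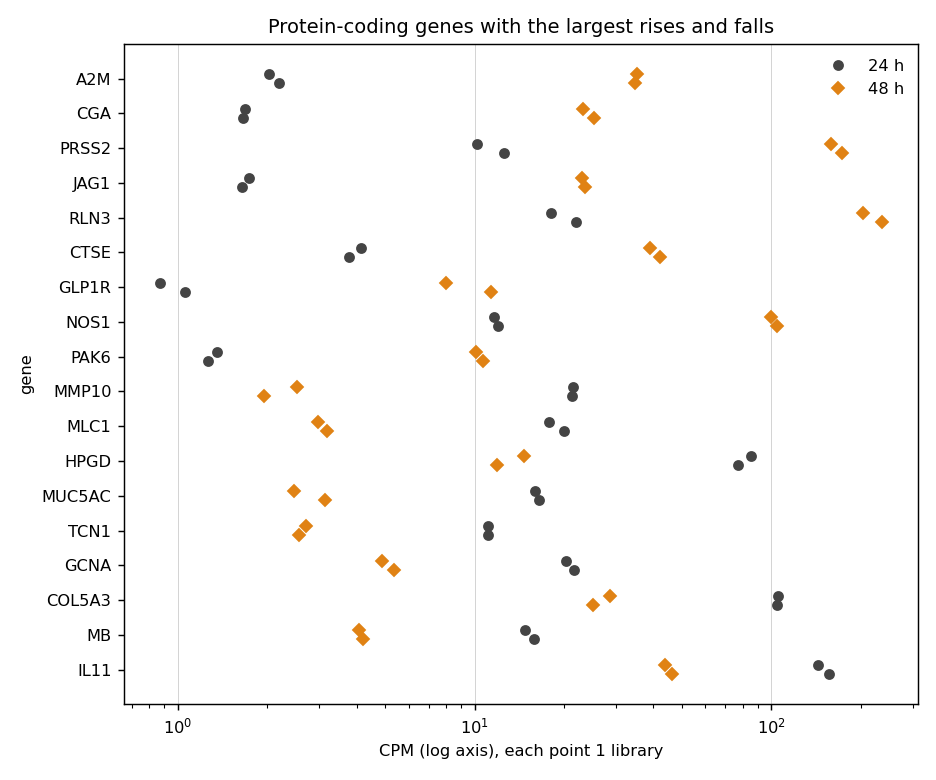
CPM (log axis) of each 24 h library (black circles) and each 48 h library (orange diamonds) for 9 of the 10 genes with the largest rises and 9 of the 10 with the largest falls among protein-coding genes; FKBPL, at 0 reads in both 24 h libraries, cannot be drawn on a log axis. In every gene shown the 2 libraries of a time point lie close together and the 2 time points do not overlap, with MMP10 going from 21.5 and 21.3 to 2.53 and 1.95 CPM.

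The lower genes were more often ones that PMA had first raised. Of the 1074 genes lower at 48 h, 515 (47.95%) had been called higher from 0 h to 6 h and 311 (28.96%) lower. Of the 1559 genes higher at 48 h, 435 (27.9%) had been called higher from 0 h to 6 h and 533 (34.2%) lower. Among all tested genes 27.8% were called higher and 29.4% lower at 6 h. These overlaps were 10.6 and 6.03% of the genes higher and lower at 6 h for the lower genes, and 8.91 and 10.3% for the higher genes. The 6 h and 0 h libraries are not among the 4 libraries of the step.

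Gene lists were then read by their counts. Across 32 lists of processes, the shares of members called higher were largest for histones, mitosis, DNA replication and megakaryocyte genes. The shares called lower were largest for NF-kB genes, cytokines, ribosome biogenesis genes and NRF2 targets. For comparison, 15% of all tested genes were called (8.88% higher and 6.12% lower) and the median change of all tested genes was 0.0034 on the log2 scale.

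**Figure D3:**
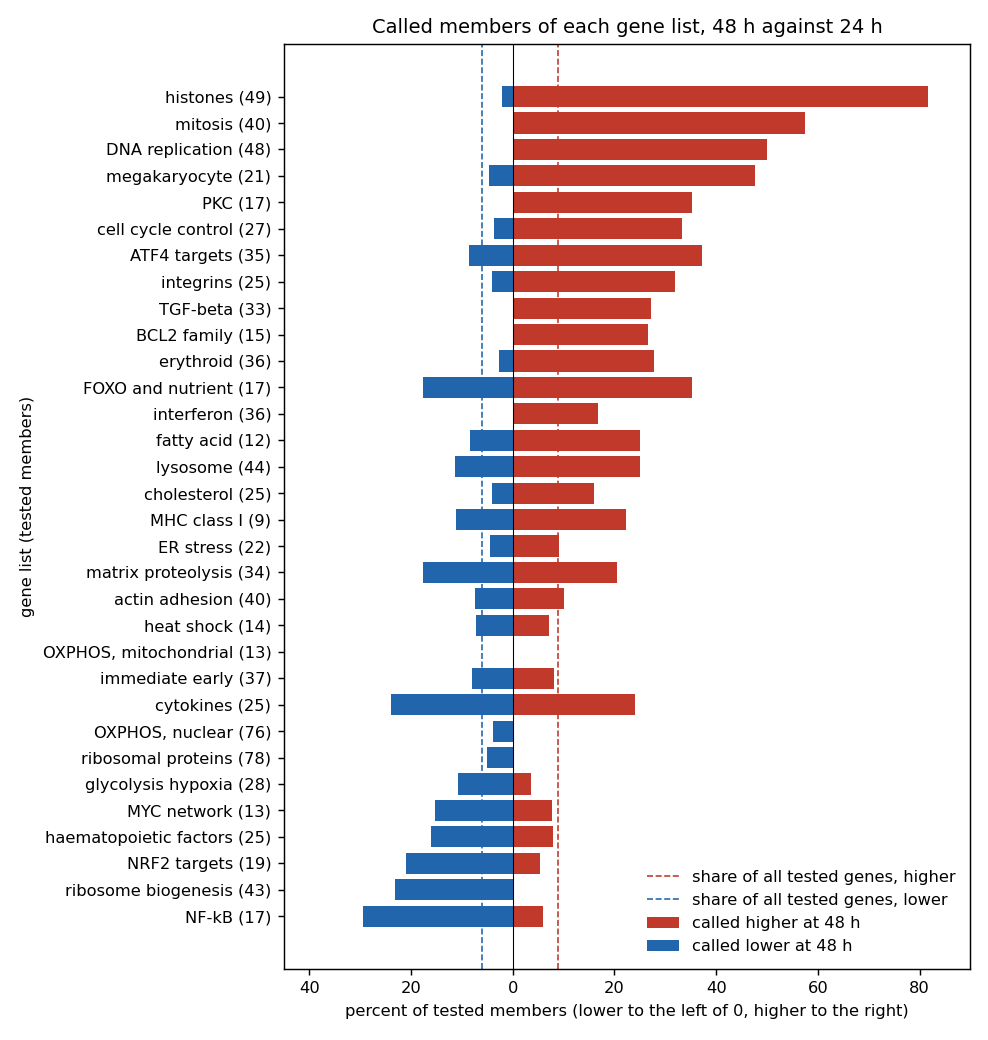
Percent of the tested members of each of 32 gene lists (number in brackets) that were called higher (red, to the right) or lower (blue, to the left) at 48 h than at 24 h. Dashed lines mark the shares of all tested genes, 8.88% higher and 6.12% lower; 40 of 49 histone genes and 23 of 40 mitosis genes were called higher, and 10 of 43 ribosome biogenesis genes lower.

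Most tested replication-dependent histone genes were called higher. Of 64 genes listed 59 are in the files and 49 passed the low-count filter. Of these 40 were called higher (81.6%, against 8.88% of all tested genes) and 1 lower (2.04%, against 6.12%). The median change was 1.18 on the log2 scale. The 40 included linker histones and all 4 core histone types. Leaving out 1 library at a time gave 29 to 37 called members, both directions together. Summed over the 49 genes, the level was 1527 and 1721 CPM at 24 h and 3222 and 3507 CPM at 48 h, so both later libraries lay above both earlier ones. Histone genes are near-identical copies of each other, so the split of reads between single members is uncertain.

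H1-5 (ENSG00000184357, chromosome 6, 27866849 to 27867529), a linker histone that binds between nucleosomes, stood at 8.55 and 8.695 CPM at 24 h and 37.4 and 37.7 CPM at 48 h (log2 fold change 2.12, SE 0.11, adjusted p = 8.5e-08). Among the core histones, H3C14 (ENSG00000203811, chromosome 1, 149839538 to 149841193) had 47.3 and 55.01 CPM at 24 h and 199 and 223 CPM at 48 h (log2 fold change 2.04, SE 0.20, adjusted p = 1.79e-05). H3C7 rose from 2.94 and 4.71 to 15.5 and 21.5 CPM (2.26, adjusted p = 0.00018). H3C12 rose from 3.26 and 3.59 to 13.6 and 16.01 CPM (2.11, adjusted p = 2.88e-05), although 44.7% of its exon bases overlap H2AC17 and the sources used here do not say whether the counting used strand. In each of these 4 genes both 48 h libraries lay above both 24 h libraries. H1-2, the member with the highest CPM, was not called, at 232 and 219 CPM at 24 h and 326 and 295 CPM at 48 h (adjusted p = 0.0581), but was with the DESeq2 test (adjusted p = 0.0183). The 1 lower member, H2BC6, had 6.46 and 6.25 CPM at 24 h and 4.54 and 4.63 CPM at 48 h (adjusted p = 0.0351), and this call was lost without each of the 4 libraries (adjusted p from 0.136 to 0.182) and with scaling to total counts (0.0886).

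On median, the histone genes stayed below their starting level. Relative to 0 h their median was −2.50 and −2.31 in the 24 h libraries, −1.07 and −0.97 in the 48 h libraries and −1.65 and −1.45 in the 72 h libraries, as log2 of CPM plus 0.1. From 48 h to 72 h, in a test that shares the 48 h libraries, 8 of the 49 were called lower. The mean of H1-5 was 68.6 CPM in untreated cells, 8.62 CPM before the step, 37.5 CPM after it and 26.9 CPM a day later.

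Histone promoters are shown because these genes moved together and carry known promoter elements. The octamer is an element of H2B promoters bound by OCT1, and 7 of its bases, ATTTGCA, were searched on either strand. This motif was found in the 250 bases before the start of 22 of 45 histone genes with a RefSeq promoter (48.9%) and in 3.67% of all 35116 promoters. A CCAAT box, CCAAT on either strand, was found in 38 of the 45 (84.4%) and in 32.01% of all promoters. Genes called higher were 19 of 22 with the motif and 18 of 23 without it, so the match did not separate the members called higher. Both promoters below are from RefSeq on GRCh38.p14, printed 5′ to 3′ on the strand of the gene, with capitals at these 7 bases, at CCAAT boxes and at an E2F site (TTCGCGC or TTGGCGC, either strand). H2BC17 rose from 15.1 and 16.5 to 50.3 and 52.7 CPM (log2 fold change 1.70) and H2AC16 from 2.87 and 2.84 to 10.4 and 11.2 CPM (1.92); both were chosen after their values were seen.
H2BC17 (chr6:27893175-27893424, plus strand): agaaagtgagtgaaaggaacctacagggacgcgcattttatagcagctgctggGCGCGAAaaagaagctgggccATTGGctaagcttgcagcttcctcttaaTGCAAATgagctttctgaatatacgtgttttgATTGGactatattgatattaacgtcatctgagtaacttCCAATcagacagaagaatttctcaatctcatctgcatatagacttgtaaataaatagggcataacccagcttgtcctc
H2AC16 (chr6:27865067-27865316, plus strand): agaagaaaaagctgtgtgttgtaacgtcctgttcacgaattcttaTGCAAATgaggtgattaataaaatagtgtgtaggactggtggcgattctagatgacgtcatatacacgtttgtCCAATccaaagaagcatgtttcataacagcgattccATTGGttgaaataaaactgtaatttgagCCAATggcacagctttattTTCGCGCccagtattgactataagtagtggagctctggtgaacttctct

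Of the genes for DNA replication and nucleotide supply, as many were called higher as were not called. Of 48 members, all tested, 24 were called higher (50%, against 8.88% of all tested genes) and 0 lower (against 6.12%). The median change was 0.36. At an unadjusted p under 0.05 edgeR gave 31 higher and 0 lower, and DESeq2 called 25 higher and 0 lower. Summed, they stood at 3086 and 3194 CPM at 24 h and 4253 and 4306 CPM at 48 h. Leading members supply nucleotides. RRM2 (ENSG00000171848, chromosome 2, 10120698 to 10131419), the small subunit of ribonucleotide reductase, stood at 166 and 183 CPM at 24 h and 404 and 394 CPM at 48 h (log2 fold change 1.19, SE 0.09, adjusted p = 2.55e-06). TYMS, thymidylate synthase, rose from 57.8 and 55.4 to 114 and 105 CPM (0.96, adjusted p = 0.000172) and TK1, thymidine kinase, from 26.1 and 28.2 to 50.4 and 51.2 CPM (0.90, adjusted p = 0.000942). Of the exon bases of TYMS 39.2% overlap ENOSF1, and 20.2% of those of RRM2 overlap another gene.

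Among the other members, chosen after their values were seen, CDC6, which loads the MCM helicase at origins, rose from 52.2 and 53.8 to 95.4 and 94.6 CPM (0.84, adjusted p = 4.42e-05). PCNA, the sliding clamp of DNA polymerases, rose from 53.4 and 59.04 to 81.4 and 83.02 CPM (0.55, adjusted p = 0.00298), and FEN1, the flap endonuclease, from 77.2 and 80.5 to 119 and 122 CPM (0.61, adjusted p = 0.000993). The large subunit of ribonucleotide reductase, RRM1, stood at 179 and 186 CPM at 24 h and 187 and 192 CPM at 48 h and was not called (adjusted p = 0.799). MCM7 was at 154 and 153 CPM at 24 h and 252 and 241 CPM at 48 h (0.68, adjusted p = 0.00206), whereas MCM6, another subunit of the same helicase, was at 159.96 and 154 CPM at 24 h and 170.3 and 163 CPM at 48 h (adjusted p = 0.676). Without 1 library 13 to 18 members were called, and 14 with counts derived from TPM.

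Mitosis genes gave calls in 1 direction. Of 40 members, all tested, 23 were called higher (57.5%, against 8.88% of all tested genes) and 0 lower (against 6.12%). The median was 0.40, and 11 to 16 were called without 1 library. At an unadjusted p under 0.05 edgeR gave 28 higher and 0 lower, and DESeq2 called 24 and 0. No called member reached 2-fold. MKI67 (ENSG00000148773, chromosome 10, 128096659 to 128126385), which coats mitotic chromosomes and is the proliferation marker Ki-67, stood at 236 and 248 CPM at 24 h and 413 and 459.5 CPM at 48 h (log2 fold change 0.85, SE 0.11, adjusted p = 0.000186). CENPA (ENSG00000115163, chromosome 2, 26764289 to 26801067), the histone H3 variant of centromeres, stood at 8.198 and 8.57 CPM at 24 h and 14.2 and 14.1 CPM at 48 h (log2 fold change 0.75, SE 0.11, adjusted p = 0.000477). BIRC5, survivin, a subunit of the chromosomal passenger complex, rose from 40.6 and 44.4 to 66.01 and 68.2 CPM (0.66, adjusted p = 0.000909). TOP2A, topoisomerase II alpha, was at 309.6 and 305 CPM at 24 h and 497 and 477 CPM at 48 h (adjusted p = 0.00535), with an adjusted p of 0.0542 without replicate 2 of 24 h. AURKA, the kinase of spindle poles, was not called, at 135 and 142 CPM at 24 h and 126 and 129 CPM at 48 h (adjusted p = 0.369), while AURKB, the kinase of the passenger complex, rose from 14.98 and 15.8 to 23.6 and 24.8 CPM (0.65, adjusted p = 0.000852); this pair was chosen after its values were seen and the difference between them was not tested.

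The promoters of mitosis genes often hold 2 short elements, shown here for 2 leading members. The cell cycle genes homology region (CHR, searched as TTTGAA on either strand) was found in 20 of 34 promoters of mitosis genes (58.8%) and in 13.3% of all promoters. Of those 20 genes 12 were called higher, as were 9 of the 14 without the element. A CCAAT box was found in 27 of the 34 (79.4%) and in 24 of 40 replication genes (60%). An E2F site was found in 9 of the 40 replication genes (22.5%) and in 4.24% of all promoters. Capitals mark the CHR and the CCAAT boxes.
MKI67 (chr10:128126424-128126673, minus strand): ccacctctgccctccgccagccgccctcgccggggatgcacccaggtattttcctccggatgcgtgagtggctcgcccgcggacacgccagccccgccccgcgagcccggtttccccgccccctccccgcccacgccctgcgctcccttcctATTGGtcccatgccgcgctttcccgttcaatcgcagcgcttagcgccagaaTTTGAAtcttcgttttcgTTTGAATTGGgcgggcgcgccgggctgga
CENPA (chr2:26785806-26786055, plus strand): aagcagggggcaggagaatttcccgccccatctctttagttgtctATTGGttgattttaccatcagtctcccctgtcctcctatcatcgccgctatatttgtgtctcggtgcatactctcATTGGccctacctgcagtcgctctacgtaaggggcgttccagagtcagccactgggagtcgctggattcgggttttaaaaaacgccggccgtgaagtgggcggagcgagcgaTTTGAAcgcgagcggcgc

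**Figure D4:**
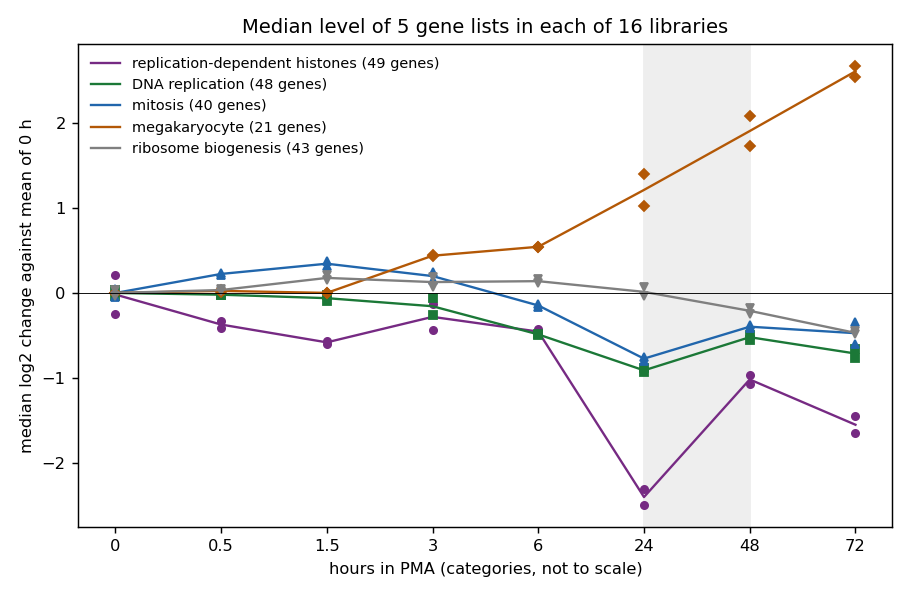
Median log2 level of 5 gene lists relative to the mean of the 0 h libraries (log2 of CPM plus 0.1), in each of the 16 libraries (points) with the mean of 2 libraries (lines); the horizontal axis gives hours in PMA as categories and the grey band marks 24 h to 48 h. Histones go from −2.50 and −2.31 to −1.07 and −0.97 across the band, the medians of DNA replication and mitosis genes also go up, that of megakaryocyte genes goes from 1.02 and 1.41 to 1.73 and 2.08, and that of ribosome biogenesis genes from −0.04 and 0.07 to −0.25 and −0.18.

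Among 27 tested regulators of the cell cycle, 9 were called higher (33.3%, against 8.88% of all tested genes) and 1 lower (3.70%, against 6.12%). The median was 0.08, and 5 to 6 were called in all without 1 library. CCND1 (ENSG00000110092, chromosome 11, 69641087 to 69654474), cyclin D1, which activates the G1 kinases CDK4 and CDK6, stood at 161 and 178 CPM at 24 h and 311 and 346 CPM at 48 h (log2 fold change 0.96, SE 0.09, adjusted p = 1.62e-05). Its mean was 14.5 CPM at 0 h, 46.96 CPM at 6 h and 408 CPM at 72 h. E2F2, an activator of S-phase genes, rose from 13.1 and 13.1 to 26.7 and 25.5 CPM (0.99, adjusted p = 2.88e-05), and E2F7, a repressor of the same genes, from 24.9 and 24.9 to 47.3 and 47.3 CPM (0.92, adjusted p = 8.89e-05). CDKN1C, the kinase inhibitor p57, also rose, from 3.52 and 3.55 to 8.899 and 8.78 CPM (1.32, adjusted p = 0.00309). CDKN1A, the inhibitor p21, was chosen after its values were seen; it stood at 82.01 and 90.5 CPM at 24 h and 88.3 and 93.8 CPM at 48 h and was not called (adjusted p = 0.774). CDK6 was at 347 and 313 CPM at 24 h and 248 and 239 CPM at 48 h, called lower (adjusted p = 0.0432), but not without any 1 library (adjusted p from 0.156 to 0.209) or with scaling to total counts (0.0938).

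About as many megakaryocyte and platelet genes were called higher as were not called. Of 30 listed genes 21 were tested. Of these 10 were called higher (47.6%, against 8.88% of all tested genes) and 1 lower (4.76%, against 6.12%). The median was 0.66, and 7 to 9 were called without 1 library. Summed, the 21 stood at 3881 and 3861 CPM at 24 h and 5939 and 5839 CPM at 48 h, with THBS1 the largest term. Several defining platelet genes were not there to be tested: GP1BA, GP9, PF4, SELP, F13A1, TREML1 and CLEC1B had at most 5 reads in any of the 4 libraries. The counts above therefore cover only part of the platelet genes.

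ITGA2B (ENSG00000005961, chromosome 17, 44372180 to 44389505), the integrin subunit alpha IIb of the platelet fibrinogen receptor, stood at 13.2 and 12.9 CPM at 24 h and 33.01 and 34.1 CPM at 48 h (log2 fold change 1.36, SE 0.11, adjusted p = 4.55e-06). Its mean of 13.1 CPM at 24 h was below the 57.7 CPM of untreated cells, and that at 72 h was 61.9 CPM. Its partner ITGB3, integrin beta 3, named after its values were seen, rose from 496 and 508 to 897 and 879.8 CPM (0.82, adjusted p = 0.000176), against a mean of 1.52 CPM at 0 h. TUBB1 (ENSG00000101162, chromosome 20, 59019254 to 59026654), the beta tubulin of the platelet rim, stood at 1.55 and 1.33 CPM at 24 h and 11.1 and 11.4 CPM at 48 h (log2 fold change 2.97, SE 0.17, adjusted p = 1.86e-07), with 33.98% of its exon bases shared with ATP5F1E. FLI1, an ETS factor of megakaryocytes, rose from 2 and 1 reads at 24 h, too few for a fold, to 0.549 and 0.725 CPM at 48 h (adjusted p = 0.000855), and its mean at 72 h was 4.48 CPM. MMRN1, multimerin of platelet granules, rose from 0.194 and 0.187 to 1.52 and 1.28 CPM (2.86, adjusted p = 0.00108).

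Further members, chosen after their values were seen, were NFE2, PTGS1 and VWF. NFE2, needed for platelet shedding, rose from 17.1 and 20.8 to 44.8 and 48.2 CPM (1.29, adjusted p = 3.64e-05) after a mean of 88.97 CPM at 0 h and 1.86 CPM at 6 h. PTGS1, the cyclooxygenase of platelets, rose from 65.7 and 67.7 to 162 and 162 CPM (1.28, adjusted p = 5.63e-06). THBS1, thrombospondin 1, had the highest CPM of the list, 2654 and 2618 CPM at 24 h and 4228 and 4150.2 CPM at 48 h (0.67, adjusted p = 0.00937), and was not called without any 1 library (adjusted p from 0.0549 to 0.0665). SRGN, the granule proteoglycan serglycin, was the 1 member called lower, at 343 and 312 CPM at 24 h and 208 and 182 CPM at 48 h (−0.75, adjusted p = 0.00979), but not without replicate 1 of 24 h (0.0677), replicate 2 of 24 h (0.0535) or replicate 2 of 48 h (0.101). VWF, von Willebrand factor, stood at 1.07 and 1.68 CPM at 24 h and 1.68 and 1.51 CPM at 48 h (adjusted p = 0.706).

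Erythroid genes, which mark K562 cells, were mostly not called, but the share called higher was above that of all tested genes. Of 36 tested members 10 were called higher (27.8%, against 8.88% of all tested genes) and 1 lower (2.78%, against 6.12%). The median was 0.18, and 5 to 6 were called without 1 library. HBA2, an alpha globin with a near-identical copy in HBA1, rose from 4.87 and 5.83 to 16.6 and 14.5 CPM (1.53, adjusted p = 0.000136), against a mean of 63.1 CPM at 0 h. ALAS2, the first enzyme of haem synthesis in red cells, rose from 1.84 and 1.74 to 3.69 and 3.96 CPM (1.097, adjusted p = 0.000284), against a mean of 28.4 CPM at 0 h. SPTB, a chain of red cell spectrin, rose from 17.4 and 18.2 to 42.8 and 41.6 CPM (1.24, adjusted p = 1.42e-05). The exons of SPTB partly overlap PLEKHG3.

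Transcription factors of blood cells had 2 members called higher (8%) and 4 lower (16%) of 25 tested, with a median of 0.10. Among all tested genes 8.88% were called higher and 6.12% lower. Without 1 library 4 to 5 members were called. ETS1 rose from 48.7 and 52.8 to 105 and 116 CPM (1.12, adjusted p = 5.35e-06). GFI1, a repressor of transcription, fell from 4.16 and 3.88 to 1.49 and 0.948 CPM (−1.72, adjusted p = 0.000853). RUNX2 fell from 25.8 and 25.6 to 17.1 and 15.95 CPM (−0.64, adjusted p = 0.000462). GATA1, the factor shared by red cells and megakaryocytes, was at 82.98 and 85.6 CPM at 24 h and 132 and 139 CPM at 48 h (0.69, adjusted p = 0.00893), with an adjusted p of 0.0651 without replicate 1 of 24 h and 0.0675 without replicate 2 of 48 h. GATA2, the member with the highest CPM, was not called, at 443 and 541 CPM at 24 h and 351 and 401 CPM at 48 h (adjusted p = 0.116).

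Cytokines and growth factors split evenly. Of 25 tested members 6 were called higher (24%, against 8.88% of all tested genes) and 6 lower (24%, against 6.12%). Without 1 library 10 to 11 were called in all, and 8 of the 12 changed at least 2-fold. IL1B (ENSG00000125538, chromosome 2, 112829751 to 112836903), interleukin 1 beta, stood at 14.5 and 15.1 CPM at 24 h and 79.2 and 80.3 CPM at 48 h (log2 fold change 2.43, SE 0.13, adjusted p = 8.5e-08). IL1A (ENSG00000115008, chromosome 2, 112773915 to 112784590), interleukin 1 alpha, stood at 3.81 and 4.27 CPM at 24 h and 18.7 and 19.8 CPM at 48 h (log2 fold change 2.25, SE 0.27, adjusted p = 0.000102), and IL1RN, the antagonist that competes with both for the receptor, fell from 59.8 and 61.7 to 17.98 and 20.6 CPM (−1.66, adjusted p = 5.28e-05). Per transcript length, mean TPM at 24 h was 55.96 for IL1RN, 14.9 for IL1B and 2.89 for IL1A, and at 48 h it was 18.96, 87.2 and 15.1. IL24 rose from 10.3 and 10.7 to 31.3 and 30.8 CPM (1.56, adjusted p = 9.05e-06). CSF1, the growth factor of macrophages, rose from 28.05 and 29.8 to 59.7 and 64.9 CPM (1.11, adjusted p = 2.96e-05).

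IL11 (ENSG00000095752, chromosome 19, 55364389 to 55370463), a cytokine that promotes megakaryocyte maturation, stood at 143 and 157 CPM at 24 h and 43.7 and 46.3 CPM at 48 h (log2 fold change −1.74, SE 0.16, adjusted p = 8.37e-06). AREG, the EGF receptor ligand amphiregulin, fell from 61.6 and 69.3 to 21.1 and 21.6 CPM (−1.62, adjusted p = 1.86e-07), and CXCL8, the neutrophil chemokine interleukin 8, from 43.3 and 47.00 to 15.1 and 15.1 CPM (−1.58, adjusted p = 7.26e-06). Before the step, at 6 h, these 3 genes averaged 227, 454 and 1462 CPM, so their falls followed an early peak. IL1B, IL1A and IL24 had no such peak, with means of 0.2202, 1.89 and 5.18 CPM at 6 h and 167, 40.3 and 119.7 CPM at 72 h. CCL2, the monocyte chemokine and the member with the highest CPM, was at 741 and 861 CPM at 24 h and 669 and 731 CPM at 48 h and was not called (adjusted p = 0.331).

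An AP-1 site, also known as the phorbol ester response element, was present in genes of both directions. Searched as TGACTCA on either strand, it was found in 6 of 19 cytokine promoters (31.6%) and in 4.20% of all promoters. The 6 genes were IL1A, which rose, IL1RN, IL11 and CXCL8, which fell, and IL23A and EBI3, which were not called. Capitals in the RefSeq promoters below mark the AP-1 site, with 1 CCAAT box in IL11 and 1 match to ATTTGCA, 7 bases of the octamer, in CXCL8. The site lies 12 bases before the RefSeq start of IL1A, 96 before that of IL11 and 137 before that of CXCL8.
IL1A (chr2:112784494-112784743, minus strand): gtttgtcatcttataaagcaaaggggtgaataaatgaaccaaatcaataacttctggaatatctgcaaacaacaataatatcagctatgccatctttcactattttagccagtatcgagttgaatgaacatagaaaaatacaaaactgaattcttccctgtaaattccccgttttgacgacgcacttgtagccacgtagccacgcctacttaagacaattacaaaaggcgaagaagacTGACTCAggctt
IL11 (chr19:55370464-55370713, minus strand): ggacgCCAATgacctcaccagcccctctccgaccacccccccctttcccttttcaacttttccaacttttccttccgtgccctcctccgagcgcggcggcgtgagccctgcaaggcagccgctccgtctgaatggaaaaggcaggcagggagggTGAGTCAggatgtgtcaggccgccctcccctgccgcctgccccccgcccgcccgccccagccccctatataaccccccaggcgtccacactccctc
CXCL8 (chr4:73740319-73740568, plus strand): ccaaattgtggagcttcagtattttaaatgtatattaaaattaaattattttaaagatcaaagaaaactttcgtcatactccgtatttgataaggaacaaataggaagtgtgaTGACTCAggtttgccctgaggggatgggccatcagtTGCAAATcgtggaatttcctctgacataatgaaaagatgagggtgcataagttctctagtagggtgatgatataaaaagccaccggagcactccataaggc

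**Figure D5:**
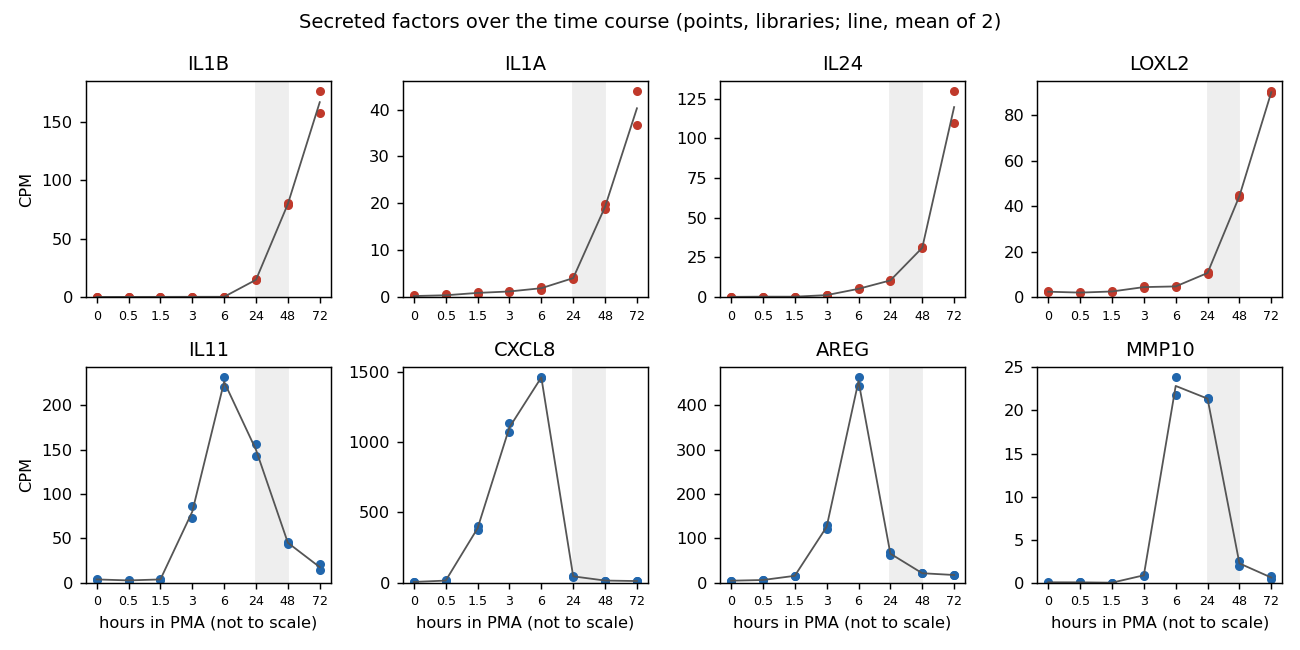
CPM of 8 genes of secreted proteins in all 16 libraries (points, 2 per time point) with the mean of each time point (lines), against hours in PMA as categories; the grey band marks 24 h to 48 h. IL1B, IL1A, IL24 and LOXL2 (top, red) are low up to 6 h and climb to 72 h, whereas IL11, CXCL8, AREG and MMP10 (bottom, blue) have their highest mean at 6 h.

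Genes of the extracellular matrix and its proteases also went both ways. Of 34 tested members 7 were called higher (20.6%, against 8.88% of all tested genes) and 6 lower (17.6%, against 6.12%). In each test without 1 library 10 were called. LOXL2, an enzyme that crosslinks collagen, stood at 11.04 and 10.1 CPM at 24 h and 44.1 and 44.8 CPM at 48 h (log2 fold change 2.07, SE 0.11, adjusted p = 1.08e-07). TGFBI, a matrix adhesion protein, rose from 1.84 and 1.702 to 6.28 and 6.64 CPM (1.87, adjusted p = 0.000627). MMP2, gelatinase A, rose from close to the detection limit, from 0.129 and 0.145 to 1.28 and 1.09 CPM (3.06, adjusted p = 0.00018). MMP1, interstitial collagenase, fell from 83.1 and 95.5 to 28.8 and 29.9 CPM (−1.60, adjusted p = 3.42e-05) together with MMP10 above, so the proteases of the list did not move as 1 group. TIMP1, an inhibitor of these proteases and the member with the highest CPM, stood at 9612 and 11952 CPM at 24 h and 10039.7 and 12007 CPM at 48 h and was not called (adjusted p = 0.944).

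Of 25 tested integrin genes, for the receptors of that matrix, 8 were called higher (32%, against 8.88% of all tested genes) and 1 lower (4%, against 6.12%). The median was 0.41, and 5 to 7 were called without 1 library. ITGA6, a laminin receptor subunit, rose most, from 1.97 and 1.85 to 10.9 and 11.4 CPM (2.55, adjusted p = 6.93e-06), and averaged 79.4 CPM at 72 h. ITGA11, a collagen receptor subunit, rose from 1.23 and 1.204 to 4.36 and 4.04 CPM (1.79, adjusted p = 0.000834). ITGA5, the fibronectin receptor subunit, was the 1 member called lower, at 787 and 799 CPM at 24 h and 568 and 554 CPM at 48 h (adjusted p = 0.0104), but not without replicate 2 of 24 h (0.0896), replicate 1 of 48 h (0.0653) or replicate 2 of 48 h (0.0828). ITGB1, the common beta subunit with the highest level, was at 1236 and 1337 CPM at 24 h and 1122 and 1185 CPM at 48 h and was not called (adjusted p = 0.446). The list shares ITGA2, ITGA2B and ITGB3 with the megakaryocyte list.

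The list of PKC, PKD and RASGRP had 17 tested genes, with the PKC substrate MARCKS among them. Of these 6 were called higher (35.3%, against 8.88% of all tested genes) and 0 lower (against 6.12%). Without 1 library 2 to 4 were called. At an unadjusted p under 0.05 edgeR gave 8 higher and 1 lower, and DESeq2 called 7 and 0. PRKCE, a calcium-independent PKC isoform, rose from 8.88 and 8.43 to 20.6 and 19.6 CPM (1.21, adjusted p = 0.000813). RASGRP2, an exchange factor of platelets, rose from 4.099 and 4.296 to 10.9 and 11.5 CPM (1.41, adjusted p = 0.0004). PRKCB, the isoform with the highest CPM, was at 319 and 323 CPM at 24 h and 394 and 387 CPM at 48 h (adjusted p = 0.0613; 0.0229 with DESeq2). Immediate-early genes had 3 called higher (8.11%) and 3 lower (8.11%) of 37, with a median of 0.09 (3 to 4 called without 1 library). These shares lay near the 8.88% higher and 6.12% lower of all tested genes. EGR2 fell from 27.05 and 29.3 to 14.7 and 16.3 CPM (−0.86, adjusted p = 9.36e-05) and NR4A1 fell from 369.6 and 390.04 to 216 and 219 CPM (−0.81, adjusted p = 0.00135), while EGR4 rose from 1.26 and 1.37 to 3.44 and 4.02 CPM (1.50, adjusted p = 0.00217).

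In the TGF-beta list 9 of 33 tested members were called higher (27.3%, against 8.88% of all tested genes) and 0 lower (against 6.12%). The median was 0.10, and 5 to 6 were called without 1 library. At an unadjusted p under 0.05 edgeR gave 13 higher and 0 lower, and DESeq2 called 11 and 0. BMP6, a ligand of the family, rose from 13.8 and 15.3 to 26.8 and 28.9 CPM (0.94, adjusted p = 0.0025). SMAD7 and BAMBI, feedback inhibitors of the pathway that were chosen after their values were seen, rose from 53.5 and 61.3 to 91.3 and 95.8 CPM (0.70, adjusted p = 0.000715) and from 36.4 and 39.1 to 59.1 and 65.2 CPM (0.72, adjusted p = 0.000324). TGFB1 itself, named after its values were seen, stood at 489 and 677 CPM at 24 h and 490.3 and 662 CPM at 48 h and was not called (adjusted p = 0.979).

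Of 35 targets of ATF4, the factor that answers amino acid shortage, 13 were called higher and 3 lower. These shares were 37.1 and 8.57%, against 8.88 and 6.12% of all tested genes. The median was 0.18, and 9 to 10 were called without 1 library. GDF15, a stress cytokine, stood at 49.1 and 59.5 CPM at 24 h and 166 and 200.4 CPM at 48 h (log2 fold change 1.75, SE 0.18, adjusted p = 2.88e-05). PHGDH, the first enzyme of serine synthesis, rose from 15.8 and 16.5 to 33.9 and 33.3 CPM (1.05, adjusted p = 8.1e-05), and ALDH1L2, a mitochondrial folate enzyme, from 7.58 and 6.99 to 16.8 and 18.1 CPM (1.26, adjusted p = 7.5e-06). CHAC1, which degrades glutathione, rose from 0.2905 and 0.602 to 1.77 and 1.95 CPM (1.97, adjusted p = 0.00149). ATF4 and ASNS, asparagine synthetase, were chosen after their values were seen and rose from 86.6 and 96.8 to 165 and 178 CPM (0.90, adjusted p = 5.15e-05) and from 18.9 and 18.9 to 37.8 and 36.2 CPM (0.97, adjusted p = 0.000617). All 6 were below their 0 h means at 24 h, and ASNS, at 438 CPM on average at 0 h, stayed far below it. PHGDH (mean 33.6 CPM at 48 h against 241 CPM at 0 h), ALDH1L2 (17.5 against 115 CPM) and CHAC1 (1.86 against 34.4 CPM) did too. GDF15 was above its 0 h mean (183 against 108 CPM). The list median relative to 0 h was −2.17 and −2.14 in the 24 h libraries and −1.99 and −2.01 in the 48 h libraries. SLC7A11, the cystine importer, fell from 33.1 and 26.6 to 15.3 and 13.2 CPM (−1.06, adjusted p = 0.00149).

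SLC7A11 is also driven by NRF2 but is not in the NRF2 list. Of 19 tested members of that list 1 was called higher (5.26%, against 8.88% of all tested genes) and 4 lower (21.1%, against 6.12%). The median was −0.29. NQO1, a quinone reductase, fell from 130.4 and 137 to 68.1 and 64.6 CPM (−1.01, adjusted p = 2.17e-05). TXNRD1, thioredoxin reductase, fell from 478 and 468 to 257 and 244 CPM (−0.91, adjusted p = 0.000176), and AKR1C1, an aldo-keto reductase with close paralogs, from 153 and 149.9 to 82.3 and 76.2 CPM (−0.94, adjusted p = 0.000231). FTL, ferritin light chain and the member with the highest CPM, stood at 4041 and 4654 CPM at 24 h and 3266 and 3534 CPM at 48 h and was not called (adjusted p = 0.166). Without 1 library 3 members were called in each test.

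NF-kB genes had 1 member of 17 called higher (5.88%, against 8.88% of all tested genes) and 5 lower (29.4%, against 6.12%). The median was −0.34. Without 1 library 2 to 3 were called, and 2 with counts derived from TPM. ICAM1, an adhesion molecule for leukocytes, fell from 155 and 174 to 90.8 and 96.7 CPM (−0.81, adjusted p = 5.93e-05). BIRC3, an inhibitor of apoptosis, was at 11.4 and 10.4 CPM at 24 h and 4.54 and 4.96 CPM at 48 h (−1.19, adjusted p = 0.00466), with an adjusted p of 0.0555 without replicate 1 of 48 h and 0.073 with counts derived from TPM. IL1A and IL1B, which are counted with the cytokines, rose in the same libraries.

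No tested gene of the ribosome biogenesis and ribosomal protein lists was called higher. Of 43 ribosome biogenesis genes 0 were called higher and 10 lower (23.3%, against 6.12% of all tested genes), with a median of −0.22. Of these genes 1 to 4 were called without 1 library, 6 with scaling to total counts and 4 with counts derived from TPM. At an unadjusted p under 0.05 edgeR gave 0 higher and 19 lower, and DESeq2 called 0 and 10. UTP20, a subunit of the small-subunit processome, fell from 106 and 103 to 71.3 and 72.1 CPM (−0.54, adjusted p = 0.00135), and NPM1, nucleophosmin, at 893 and 958 CPM at 24 h and 781 and 793 CPM at 48 h, was not called (adjusted p = 0.192). All 78 ribosomal protein genes had a fitted change below 0, as against 8673 of all 17559 tested genes, and 4 (5.13%) were called lower (0 to 3 without 1 library), near the 6.12% of all tested genes. Their summed level was 44059 and 48452 CPM at 24 h and 37099.9 and 38856 CPM at 48 h. The 13 mitochondrially encoded respiratory chain genes had a median of −0.62 with 0 called by edgeR (3 lower at an unadjusted p under 0.05) and 0 by DESeq2. The groups overlapped, with summed levels of 24190 and 40549 CPM at 24 h and 15260.0 and 26584 CPM at 48 h, and the part of this share in other results was not tested.

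Several further lists were set beside the 15% of all tested genes that were called (8.88% higher and 6.12% lower). In the lysosome list 11 of 44 members (25%) were called higher and 5 (11.4%) lower (4 to 7 in all without 1 library). CTSZ, a cathepsin, rose from 55.7 and 64.4 to 98.9 and 110.3 CPM (0.80, adjusted p = 0.00075). Among FOXO and nutrient genes 6 of 17 (35.3%) were called higher and 3 (17.6%) lower. In all, 3 to 5 were called without 1 library, and 2 with counts derived from TPM. DDIT4, an inhibitor of mTOR complex 1, rose from 45.7 and 47.3 to 105 and 100.3 CPM (1.14, adjusted p = 4.79e-05), and TXNIP, which limits glucose uptake, from 59.5 and 61.7 to 95.97 and 95.3 CPM (0.66, adjusted p = 0.00149). SLC2A3, the glucose transporter GLUT3, rose from 260.1 and 266 to 418 and 432 CPM (0.69, adjusted p = 0.000226), while the glycolytic enzyme PKM fell from 1616 and 1808 to 1087 and 1123 CPM (−0.63, adjusted p = 0.00126). In cholesterol synthesis 4 of 25 were called higher and 1 lower (3 to 4 without 1 library), with DHCR7, which catalyses the last step, rising from 41.02 and 45.3 to 71.01 and 78.4 CPM (0.79, adjusted p = 0.00116). The MYB family members MYBL2 and MYB went apart: MYBL2, which serves dividing cells, rose from 32.6 and 38.2 to 66.5 and 73.1 CPM (0.98, adjusted p = 0.000173), and MYB, of blood progenitors, fell from 108 and 113 to 72.5 and 81.01 CPM (−0.53, adjusted p = 0.00106). BMF, a pro-apoptotic member of the BCL2 family, rose from 11.1 and 12.3 to 21.5 and 22.9 CPM (0.92, adjusted p = 0.00177), and 4 of 15 genes of that family were called, all higher; without 1 library it was 1 in each test.

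Counts for the other lists follow, beside 15% called among all tested genes (8.88% higher and 6.12% lower). Interferon genes had 6 of 36 called higher with a median of 0.32, and 1 to 3 called without 1 library, and fatty acid genes had 3 higher and 1 lower of 12 (1 to 3 without 1 library). Actin and adhesion genes had 4 higher and 3 lower of 40 (1 to 4), ER stress genes 2 and 1 of 22 (1 to 2), heat shock genes 1 and 1 of 14 (1 to 2), and MHC class I genes 2 and 1 of 9 (0 to 1). Glycolysis and hypoxia genes had 1 higher and 3 lower of 28, the MYC network 1 and 2 of 13, and nuclear genes of the respiratory chain 3 lower of 76 (0 to 1 without 1 library).

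Markers of other cell types were checked in the same libraries, beside the 8.88% called higher and 6.12% called lower among all tested genes. Of 15 monocyte markers 11 were tested and 2 (18.2%) were called higher (S100A9 and TYROBP). Summed levels were 201 and 238 CPM at 24 h and 208 and 237 CPM at 48 h. CD14 was at 0.0914 to 0.112 CPM in all 4 libraries, and LYZ, lysozyme, stood at 36.5 and 34.5 CPM at 24 h and 40.04 and 41.7 CPM at 48 h (adjusted p = 0.185). No lymphoid marker was called by edgeR (0 of 4 tested; 2 higher at an unadjusted p under 0.05) or DESeq2 (0), with summed levels of 12.98 to 16.64 CPM. Of 5 tested markers of fibroblasts and endothelium 3 (60%) were called higher (COL1A1, CDH5 and PECAM1). Summed levels were 144 and 143 CPM at 24 h and 296 and 287 CPM at 48 h. COL1A1, the alpha 1 chain of collagen I, rose from 109 and 109.7 to 244 and 241 CPM (1.15, adjusted p = 6.25e-06). COL3A1 and LUM, which define fibroblasts, had at most 5 and 0 reads in any of the 4 libraries. Erythroid markers of K562 were called higher in 5 of 10 cases (50%), with summed levels of 1093 and 1028 CPM at 24 h and 1642 and 1474 CPM at 48 h.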

How the data were processed

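The 16 libraries were made from total RNA with ribosomal RNA removed, per the labels' protocols. Per the file headers, the deposited tables hold estimated counts of reads per transcript and TPM, in the layout of salmon. Trim Galore 0.4.3 and Salmon are named in the submitters' processing notes, without a Salmon version, along with the builds hg19 and hg38 without a role. Bias correction and strand setting are not given in the sources used here.

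Estimated counts were summed per gene by unversioned transcript identifier with GENCODE 29 on GRCh38 (167027 of 177456 transcripts, 94.1%, in 35052 genes) and rounded. The unmatched transcripts held 3.23 to 3.52% of the reads of the 4 libraries and were left out. Low-count genes were removed by filterByExpr, leaving 17559. edgeR 4.0.16 (R 4.3.3; TMM factors 0.854 to 1.139, quasi-likelihood F-test, prior count 0.125) was fitted to all 16 libraries, with 8 residual degrees of freedom, and adjusted by Benjamini-Hochberg. Standard errors are the absolute log2 fold change over the square root of F. TPM served only to set levels of different genes side by side and as an alternative. Alternatives used DESeq2 1.42.0, other scalings, filters, a replicate block and each library left out, and the scripts were tested on simulated data. A floor of 3 reads per library was on average 0.0795 CPM at 24 h and 0.0875 CPM at 48 h, and covers counting error only. With 2 libraries a side no exact permutation test can reach 0.05, and none was run on single genes.

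Named genes are the 10 largest rises and falls among called protein-coding genes with at least 5 CPM on average over the 4 libraries, up to 4 called rises and 4 called falls of each list, and the member of each list with the highest CPM. Some genes that meet this rule are not reported here. Members and lists were chosen with earlier results of these data known. Promoters are the 250 bases before a RefSeq gene start, which can lie inside the GENCODE span given for a gene, as for IL1A and CENPA.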

Additional observations from a re-analysis of the deposited data

Results flagged for a closer look

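Some transcripts without a match in the annotation, which stand outside the gene-level comparison, had reads at 1 time point of the step and none in both untreated libraries. Mean levels at 24 h were 4.79 CPM for ENST00000665936.1, 12.1 CPM for ENST00000427021.3, 3.81 CPM for ENST00000383062.8 and 8.42 CPM for ENST00000425378.2. The mean level at 48 h was 4.06 CPM for ENST00000612446.4. Of 10429 unmatched transcripts, 14 had at least 100 reads in both libraries of 1 time point and 0 in both of the other (8 at 24 h and 6 at 48 h). The way reads were shared between alternative transcripts was not tested.

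Among matched genes FKBPL (ENSG00000204315, chromosome 6, 32128707 to 32130291) behaved likewise, with 0 reads in both 24 h libraries and 421 and 457 reads at 48 h (12.8 and 12.7 CPM). Against a floor of 3 reads per library it was at least 161-fold higher. Its mean was 8.62 CPM at 0 h, 4.51 CPM at 6 h and 11.6 CPM at 72 h, and its value is uncertain.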

How the results depend on the processing

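With 2 libraries a side, the count of called genes depended on the choices made. Against 2633 (1559 higher, 1074 lower; 59.2% higher), counts derived from TPM gave 1735 with 568 lower, the 4 libraries alone 4444 with 2129 lower, and a fit with the GC trend of the libraries removed 4024 (2403 and 1621). An adjusted p under 0.01 gave 1321 (904 and 417), and a test against a 2-fold change gave 224 (195 and 29; 87.1% higher), all of at least 2-fold. Scaling to total counts put 72.9% of 2652 calls on the higher side. Leaving out 1 library gave 1115 to 1471 calls (837 to 942 higher, 229 to 529 lower), 64.0 to 79.5% of them higher, and 574 to 648 of at least 2-fold. DESeq2 factors, the DESeq2 test, no filter, a minimum of 10 counts and removal of genes of unstable assignment gave 2380 to 2983.

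With the replicate number as a block 3008 genes were called (1688 and 1320), and with the block and the GC trend removed 4628 (2649 and 1979). In the labels the 2 pairs share only a number, but their deviations correlated at 0.53. The difference of replicate 1 from replicate 2 correlated with the GC content of genes at −0.31 (24 h) and −0.29 (48 h). The libraries numbered 2 also had longer fragments at both times. The source of this shared difference was not tested, and the main fit does not model it.

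Among named genes, only ones that were not called changed sign. HSP90B1 went to 0.043 (total counts), 0.027 (GC trend removed) and 0.028 (also with the block), and ranged from −0.11 to 0.063 without 1 library (0.0046 without replicate 1 of 48 h). STAT2 went to 0.057 (total counts), 0.0038 (minimum of 10 counts) and 0.0026 (GC trend removed, also with the block), and ranged from −0.072 to 0.051 without 1 library. Over the same 4 tests TIMP1 ranged from −0.12 to 0.23, EGR1 from −0.33 to 0.00089 and ATP5F1B from −0.021 to 0.066. The list medians of nuclear respiratory chain, ER stress, heat shock, glycolysis, MHC class I, cytokine and matrix genes changed sign under 1 to 4 of the alternatives.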

Other observations

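Outside the gene lists, and chosen after their values were seen, 4 further genes rose from 24 h to 48 h. ACE, the angiotensin-converting enzyme, rose from 33.6 and 31.8 to 119 and 134 CPM (1.95, adjusted p = 5.32e-07), with 23.9% of its exon bases overlapping another gene. TGM2, tissue transglutaminase, which crosslinks matrix proteins, rose from 33.1 and 31.8 to 156 and 149 CPM (2.23, adjusted p = 1.01e-07), and BACE2, an aspartic protease, from 15.7 and 15.1 to 77.4 and 79.3 CPM (2.35, adjusted p = 5.32e-07). COL15A1, a basement membrane collagen chain, rose from 11.7 and 12.2 to 49.8 and 51.9 CPM (2.08, adjusted p = 1.5e-08).

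2 genes that fell were also chosen after their values were seen. ANXA1, annexin A1, a calcium-dependent phospholipid-binding protein, fell from 352 and 356 to 129 and 118 CPM (−1.52, adjusted p = 1.18e-05), and PRDX1, the antioxidant enzyme peroxiredoxin 1, whose exons partly overlap MMACHC, from 838 and 818 to 287 and 264 CPM (−1.59, adjusted p = 3.27e-05).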
